A study of Homo sapiens with 8 samples.

Results

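The 40 genes described here are cell cycle genes, 20 that act in DNA replication and 20 that act in G2 and mitosis, taken by their GENCODE symbols from the 58219 genes listed for each library. All 40 passed the filter on low counts, as did 13129 protein-coding genes in all. The genes lie on 17 chromosomes. The RNA came from H929 and KMS11, established multiple myeloma (MM) cell lines that both carry the t(4;14) translocation, so each line stands for itself and not for a set of tumours. Cells were kept for 24 h in 2 µM fluvastatin, which blocks HMG-CoA reductase in the mevalonate pathway, or in ethanol, its solvent. Each of the 4 groups (H929 ethanol, H929 fluvastatin, KMS11 ethanol, KMS11 fluvastatin) had 2 biological replicates, which gave 8 libraries.

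In G1, the origin recognition complex, CDC6 and CDT1 load the MCM2-7 helicase onto DNA, and in S phase CDC45 and the GINS complex turn it into the active helicase, while PCNA clamps the polymerases to the template. Many of these genes are transcribed at the G1/S boundary by E2F factors. The mitotic genes, which include the cyclin B and CDK1 kinase, the Aurora and Polo kinases and the spindle checkpoint, peak later and are regulated in large part through CHR elements, which the DREAM and MuvB complexes bind.

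That division can be seen in the promoter sequence. RefSeq promoter windows of 300 bases (GRCh38.p14, 250 before and 50 after the start) were found for 34 of the 40 genes, 17 of each kind. The genes not matched were MCM4, MCM5, CCNE2, AURKA, TTK and TPX2. An E2F motif (TTTCCCGC, TTTCGCGC, TTTGCCGC or TTTGGCGC, either strand) was held by 12 of 17 replication genes (70.6%) and by 1 of 17 mitosis genes (5.88%, CDK1). Of all 27305 genes with a window 3.99% held one, and of the 10642 tested genes with a window 6.7%. A CHR motif (TTTGAA or TTCGAA, either strand) was held by 2 replication genes (11.8%) and 12 mitosis genes (70.6%), against 19.5% of all genes and 16% of tested genes. A CCAAT box (CCAAT, either strand) was held by 13 replication genes (76.5%) and 15 mitosis genes (88.2%), against 39.7% of all genes and 44.2% of tested genes. Matches of different motifs may overlap, and genes with several windows had more sequence to search.

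The stretches that follow run from 80 bases before to 20 after the start and are shown because they hold the motif that is common in their list. Capitals mark an E2F motif in the first 4, which belong to replication genes that fell strongly in H929, and a CHR motif in the last 4, which belong to mitosis genes. UHRF1 is at chr19:4909421-4909520 (plus strand), CDC6 at chr17:40287799-40287898 (plus), GINS2 at chr16:85688935-85689034 (minus) and PCNA at chr20:5126603-5126702 (minus). CDC20 is at chr1:43358901-43359000 (plus), BUB1B at chr15:40160989-40161088 (plus), PLK1 at chr16:23678809-23678908 (plus) and CCNB2 at chr15:59105066-59105165 (plus). All are in GRCh38.p14, printed 5′ to 3′ on the strand of the gene.
UHRF1: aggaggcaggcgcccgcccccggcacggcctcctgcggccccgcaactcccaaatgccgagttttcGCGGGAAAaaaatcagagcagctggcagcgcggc
CDC6: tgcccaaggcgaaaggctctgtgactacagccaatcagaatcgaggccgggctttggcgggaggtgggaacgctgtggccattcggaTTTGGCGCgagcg
GINS2: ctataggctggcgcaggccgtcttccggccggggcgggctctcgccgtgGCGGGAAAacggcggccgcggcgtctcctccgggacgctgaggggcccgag
PCNA: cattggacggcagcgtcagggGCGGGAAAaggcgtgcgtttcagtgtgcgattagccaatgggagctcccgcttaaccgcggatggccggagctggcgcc
CDC20: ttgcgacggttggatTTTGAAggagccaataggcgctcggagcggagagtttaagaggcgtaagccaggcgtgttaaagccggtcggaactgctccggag
BUB1B: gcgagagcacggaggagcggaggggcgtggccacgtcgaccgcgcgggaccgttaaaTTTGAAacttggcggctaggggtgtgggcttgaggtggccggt
PLK1: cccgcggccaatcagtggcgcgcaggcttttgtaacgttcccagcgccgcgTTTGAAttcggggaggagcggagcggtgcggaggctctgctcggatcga
CCNB2: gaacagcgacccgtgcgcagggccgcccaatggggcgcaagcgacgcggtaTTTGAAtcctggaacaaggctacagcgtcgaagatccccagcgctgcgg
A match is a description of the letters and not of a bound site.

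Totals of the deposited expected counts, the fragments that RSEM assigned to genes, ranged from 26702515 to 41910446 per library. Protein-coding genes took between 85.2% and 91.4% of them. KMS11 fluvastatin replicate 1 stood apart from the other KMS11 libraries, with 88.1% against 90.8% to 91.4%. Log2 ratios between the replicates had an SD of 0.252 for KMS11 fluvastatin, against 0.126 for KMS11 ethanol, 0.179 for H929 ethanol and 0.182 for H929 fluvastatin. Over 7750 genes (no independent replicates), the log2 ratio of KMS11 fluvastatin replicate 1 to replicate 2 followed GC content with a Pearson correlation of 0.789. That correlation was 0.591 for H929 ethanol, 0.597 for H929 fluvastatin and -0.199 for KMS11 ethanol. The replication genes had a median GC content of 48.7% and the mitosis genes 43.7%. All 8 plasma cell markers (SDC1, TNFRSF17, CD38, PRDM1, IRF4, XBP1, MZB1, JCHAIN) passed the filter, but CD38 was at 0.01 to 0.04 TPM in KMS11, against 21.2 to 26.9 in H929. EPCAM, an epithelial marker, was at 30.2 to 35.9 TPM in KMS11 and at most 0.04 in H929.

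Levels between genes are compared here on the TPM scale, which divides by transcript length. RRM2, the small subunit of ribonucleotide reductase, had the highest mean TPM of the replication genes over the 8 libraries (166), and CDT1, a helicase loader, the lowest (5.31). Of the mitosis genes, CCNB1, which encodes cyclin B1, was highest (138) and CDC25C, a phosphatase that activates CDK1, was lowest (6.0). The smallest expected count of a replication gene in any library was 157 and that of a mitosis gene 345, so that all 40 were measured well above the counting floor.

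In H929, fluvastatin lowered the whole replication list and part of the mitosis list. All 20 replication genes fell, where 19.3% of all tested genes fell and 22.7% rose (42% changed either way). Of the 20 mitosis genes, 9 fell, 1 rose (CDC25B) and 10 did not pass the threshold of 0.05 on the adjusted p, which throughout comes from the quasi-likelihood F test of edgeR and the Benjamini-Hochberg method. The median log2 fold change was -1.65 for the replication genes and -0.31 for the mitosis genes, beside 0.02 for all tested genes. In bulk RNA, fewer cells in S phase and less of these transcripts per cell cannot be told apart.

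**Figure D1:**
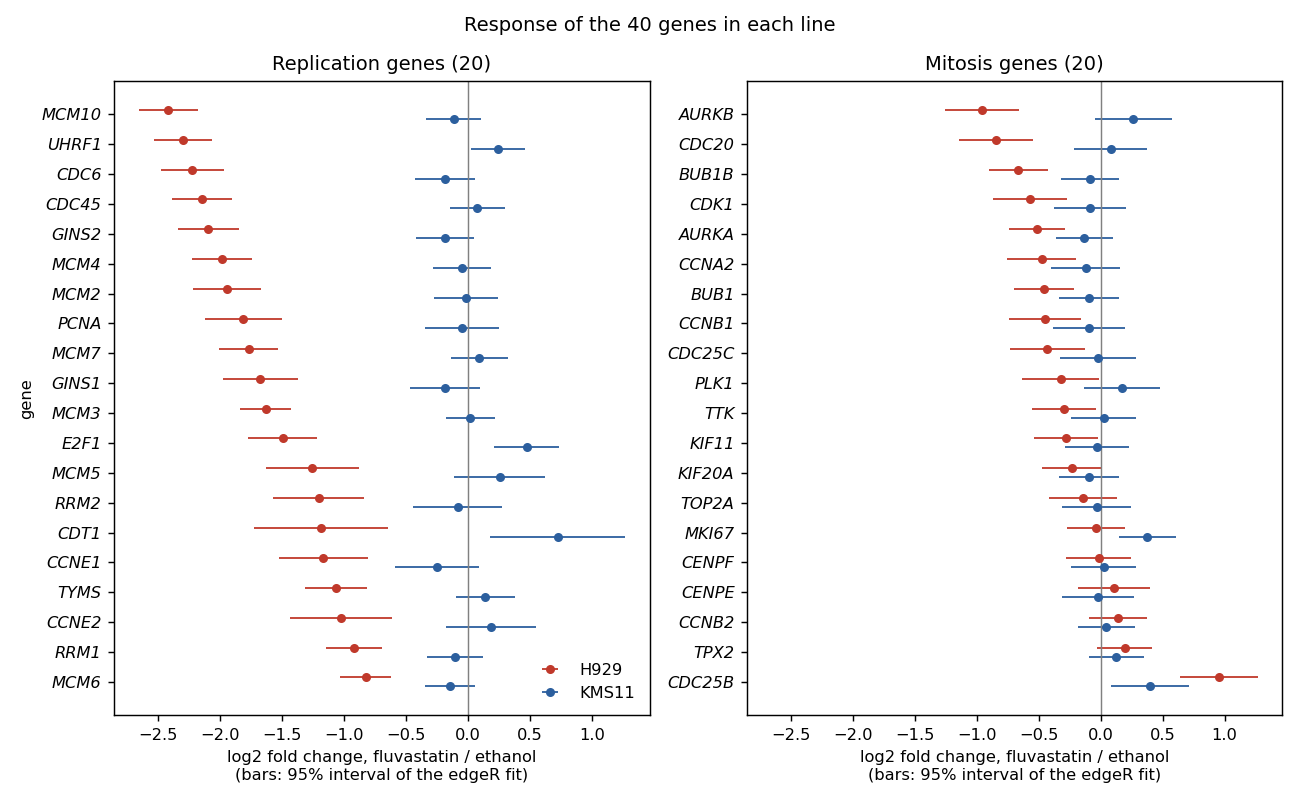
Log2 fold change of each of the 40 genes, fluvastatin over ethanol, in H929 (red) and KMS11 (blue). Points are estimates of the edgeR fit with 2 libraries per group and bars are 95% intervals. All 20 replication genes lie left of 0 in H929, from -2.42 to -0.82, while in KMS11 their range is -0.25 to 0.72. The mitosis genes run from -0.96 to 0.95 in H929.

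The replication genes were among the most reduced transcripts in H929. Ranked from the lowest log2 fold change of all tested genes, they lay between percentiles 0.51 and 8.18, and 17 of them were in the lowest 5%. No mitosis gene was in that range (0 of 20). Of the replication genes, 18 lay below the lowest mitosis gene, AURKB. The log2 fold change was at or below -1 for 18 replication genes and 0 mitosis genes. Fluvastatin libraries lay below both ethanol libraries for 20 of 20 replication and 13 of 20 mitosis genes on the CPM scale, and for 33.5% of all tested genes. They lay above for 0 replication and 2 mitosis genes, against 37.5% of all tested genes.

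MCM10, which helps to start the helicase at origins, was at 143 and 156 CPM (counts scaled to a common library size by TMM) in the H929 ethanol libraries and at 25.8 and 30.2 with fluvastatin. This was the largest fall of the list, with a log2 fold change of -2.42 (adjusted p = 1.6e-06, standard error 0.11), and left 18.7% of the ethanol level. UHRF1, which recruits the maintenance DNA methyltransferase to replicated DNA, went from 96.4 and 104 to 19.1 and 21.5 CPM in H929 (-2.30, standard error 0.11, adjusted p = 1.6e-06). For both genes, the treated libraries lay far below the untreated ones with no overlap.

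The factors that load and fire the helicase fell together with MCM10. CDC6, a helicase loader, was at 230 and 242 CPM in H929 ethanol and at 47.3 and 53.9 with fluvastatin (-2.22, standard error 0.11, adjusted p = 2e-06). CDC45, a subunit of the active helicase, went from 51.6 and 51.8 to 11.4 and 12.0 CPM (-2.14, standard error 0.11, adjusted p = 1.9e-06). GINS2, a subunit of the GINS complex, went from 78.2 and 86.8 to 17.8 and 20.9 CPM (-2.09, standard error 0.11, adjusted p = 2.4e-06). Between 21.4% and 23.4% of the ethanol level was left in these 3 genes. GINS1 had -1.67. CDT1 fell less, from 56.7 and 44.3 to 26.2 and 18.3 CPM (-1.18, standard error 0.24, adjusted p = 0.0033). Its replicates also differed most, so that its interval ran from -1.72 to -0.64.

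The 6 subunits of the MCM2-7 helicase, which work as a ring with one copy of each, did not fall by the same amount. MCM4 was at 435 and 476 CPM in H929 ethanol and at 105 and 126 with fluvastatin (-1.98, standard error 0.11, adjusted p = 2.4e-06). MCM2 (-1.94), MCM7 (-1.77), MCM3 (-1.63) and MCM5 (-1.25) followed. MCM6 fell least of all 20 replication genes, from 281 and 297 to 155 and 172 CPM (-0.82, standard error 0.09, adjusted p = 0.00011). Its 95% interval, -1.03 to -0.62, did not reach the intervals of MCM2, MCM3, MCM4 or MCM7. As a share of the summed TPM of the 6 subunits, MCM6 went from 9.35% to 16.5% in H929 and MCM4 from 29.7% to 22.9%. In KMS11 the share of MCM6 was 6.49% in ethanol and 5.62% with fluvastatin. Differences between genes within a line were not tested.

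Among the other replication genes, PCNA, the sliding clamp, was at 149 and 183 CPM in H929 ethanol and at 42.2 and 52.3 with fluvastatin (-1.81, standard error 0.14, adjusted p = 1.5e-05), and at 238 and 211 in KMS11 ethanol and 208 and 227 with fluvastatin (-0.05, 95% interval -0.34 to 0.25). E2F1, an activator of G1/S transcription, went from 81.8 and 73.9 to 27.2 and 28.1 CPM (-1.49, standard error 0.12, adjusted p = 2.2e-05). The genes of deoxynucleotide synthesis fell less, by about as much as the cyclin E genes. RRM2 went from 941 and 1134 to 443 and 458 CPM (-1.20, standard error 0.16, adjusted p = 0.00035). RRM1, the large subunit of the same enzyme, had -0.91, and TYMS, thymidylate synthase, had -1.06. CCNE1 and CCNE2, the cyclins E that activate CDK2 at S phase entry, had -1.17 and -1.02.

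Replication genes with an E2F motif in a promoter window had a median log2 fold change of -1.72 in H929 (12 genes, -2.30 to -0.82), and those without had -1.20 (5 genes, -2.42 to -0.91). The ranges overlap, and MCM10 and CDC45, which were among the 4 largest falls, had no match. The UHRF1, CDC6, GINS2 and PCNA stretches printed above belong to the genes with a match. Among mitosis genes the median was -0.30 with a CHR motif (12 genes) and -0.45 without (5 genes). These are descriptions with no test.

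The mitosis genes that fell in H929 were mainly kinases, cyclins and checkpoint genes. AURKB, the kinase of the chromosomal passenger complex, was at 65.9 and 57.9 CPM in ethanol and at 34.3 and 29.4 with fluvastatin (-0.96, standard error 0.13, adjusted p = 0.00041). CDC20, the activator of the anaphase-promoting complex, went from 170 and 167 to 100.4 and 87.2 CPM (-0.84, standard error 0.13, adjusted p = 0.00079). BUB1B, the checkpoint protein BUBR1, went from 242 and 281 to 156 and 174 CPM (-0.66, standard error 0.11, adjusted p = 0.00084). The groups did not overlap for any of the 3. CDK1, the mitotic kinase, went from 110 and 139 to 79.6 and 88.0 CPM (-0.57, standard error 0.13, adjusted p = 0.0068). AURKA, the spindle pole kinase, went from 157 and 189 to 118 and 124 CPM (-0.51, standard error 0.10, adjusted p = 0.0029). CCNA2, BUB1, CCNB1 and CDC25C had -0.48, -0.45, -0.45 and -0.43, with adjusted p between 0.0077 and 0.027.

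AURKB and CDC20 fell by far more than their ethanol replicates differed, while CCNB1 did not. CCNB1 was at 272 and 356 CPM in H929 ethanol and at 216 and 245 with fluvastatin (standard error 0.13, adjusted p = 0.019). In each of these groups replicate 2 was the higher library for CCNB1. CDC25C was at 25.8 and 28.5 in ethanol and at 18.6 and 21.6 CPM with fluvastatin (standard error 0.13, adjusted p = 0.027). The fluvastatin libraries were lower for both genes, and for CCNB1 the means differed by about as much as the ethanol replicates did. Without H929 ethanol replicate 2 the log2 fold change was -0.24 for CCNB1, -0.36 for CDC25C, -0.29 for CCNA2, -0.32 for BUB1 and -0.40 for CDK1. Without H929 fluvastatin replicate 1 it was -0.36 for CCNB1, -0.33 for CDC25C, -0.40 for CCNA2 and -0.39 for BUB1. Fewer genes passed the threshold in these fits, among mitosis genes and among all tested genes. Within H929 all 20 replication genes stayed past the threshold under every alternative run on all 8 libraries.

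CDC25B, a phosphatase that activates CDK1 at the centrosome, went the other way. It was at 84.3 and 78.1 CPM in H929 ethanol and at 166 and 149 with fluvastatin (0.95, standard error 0.14, adjusted p = 0.00053). The other 10 mitosis genes did not pass the threshold in H929. PLK1 (-0.32), TTK (-0.29), KIF11 (-0.28) and KIF20A (-0.23) had adjusted p between 0.066 and 0.11. TOP2A, DNA topoisomerase II alpha, had -0.14 (95% interval -0.42 to 0.13). MKI67, which encodes the proliferation marker Ki-67, was at 450 and 443 CPM in ethanol and at 422 and 448 with fluvastatin, groups that overlapped (-0.04, -0.27 to 0.19), and CENPF, a kinetochore protein, had -0.02 (-0.28 to 0.25). CENPE, CCNB2 and TPX2 had 0.11, 0.14 and 0.19. None of the 7 motor, kinetochore and chromatin genes (TOP2A, MKI67, CENPE, CENPF, KIF11, KIF20A, TPX2) was past the threshold in edgeR, and KIF11 alone had an unadjusted p under 0.05. DESeq2 called 10 mitosis genes in all, where it called 40.7% of all genes with an adjusted p. Some of these values depended on the processing. With the GC trend removed, TTK (-0.41, adjusted p = 0.00031), KIF11 (-0.41, adjusted p = 0.00046) and TOP2A (-0.28, adjusted p = 0.0051) passed the threshold. With the length trend removed, TTK (-0.31, adjusted p = 0.039), KIF11 (-0.44, adjusted p = 0.009), TOP2A (-0.32, adjusted p = 0.049) and MKI67 (-0.28, adjusted p = 0.047) did. KIF20A passed without KMS11 fluvastatin replicate 2 (-0.27, adjusted p = 0.047).

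The summed TPM of each list gives the same contrast in each library. For the replication genes it was 913 and 948 in H929 ethanol, 312 and 335 in H929 fluvastatin, 1127 and 1073 in KMS11 ethanol and 944 and 1105 in KMS11 fluvastatin. For the mitosis genes it was 750 and 863 in H929 ethanol, 626 and 689 in H929 fluvastatin, 1255 and 1151 in KMS11 ethanol and 985 and 1159 in KMS11 fluvastatin. The ratio of the sums was 1.22 and 1.10 in H929 ethanol, 0.499 and 0.486 in H929 fluvastatin, 0.898 and 0.933 in KMS11 ethanol and 0.959 and 0.954 in KMS11 fluvastatin. Treated and untreated H929 did not overlap in either sum or in the ratio. In KMS11 both fluvastatin ratios were above both ethanol ratios, and this was not tested. The lower KMS11 fluvastatin sums were those of replicate 1, the library that stood apart.

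**Figure D2:**
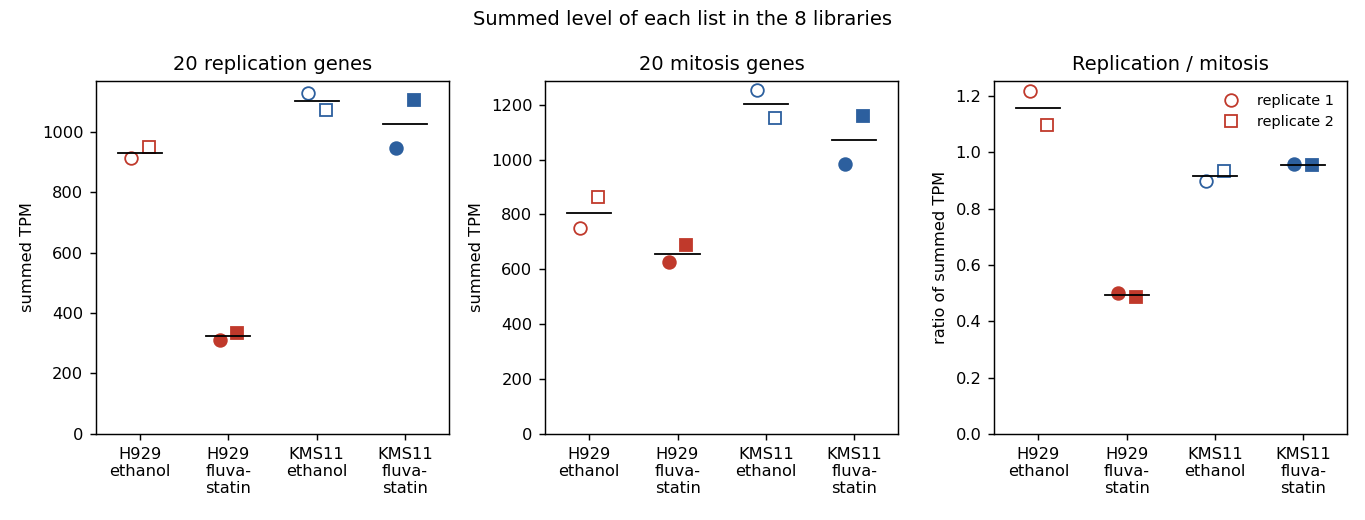
Summed TPM of the 20 replication genes (left), of the 20 mitosis genes (middle) and their ratio (right) in each of the 8 libraries. Open symbols are ethanol, filled symbols fluvastatin, circles replicate 1, squares replicate 2 and lines the mean of 2 libraries. The ratio falls from 1.22 and 1.10 to 0.499 and 0.486 in H929, and in KMS11 it is 0.898 and 0.933 in ethanol and 0.959 and 0.954 with fluvastatin.

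In KMS11, edgeR called 0 of the 40 genes, where 3.12% of all tested genes changed (2.58% higher and 0.533% lower). At an unadjusted p under 0.05 there were 5 (12.5%), all higher with fluvastatin, where 21.9% of all tested genes were at that level. DESeq2 called 3 (7.5%), also higher, where it called 8.35% of all genes with an adjusted p. Both shares of the 40 were below those of all genes. The median log2 fold change was -0.03 for the replication genes and -0.02 for the mitosis genes, beside 0.00 for all tested genes. For 35 of the 40 genes the 95% interval included 0. A p above the threshold does not show that a level stayed the same. The lowest bound of any interval was -0.59 for a replication gene (CCNE1) and -0.40 for a mitosis gene (CCNA2), both above the smallest fall of a replication gene in H929 (MCM6, -0.82). Fluvastatin libraries lay below both ethanol libraries for 6 replication and 4 mitosis genes (26.5% of all tested genes) and above for 4 and 4 (26.9%).

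The replication genes that led the list in H929 differed little between the KMS11 groups. MCM10 was at 166 and 165 CPM in KMS11 ethanol and at 149 and 156 with fluvastatin (-0.12, 95% interval -0.33 to 0.10). CDC6 was at 270 and 296 in ethanol and at 231 and 267 CPM with fluvastatin (-0.18, -0.42 to 0.06). CDC45 was at 48.0 and 52.2 in ethanol and at 54.3 and 51.5 CPM (0.08, -0.14 to 0.30). The groups overlapped for CDC45 but not for the other two. GINS2 was at 74.0 and 71.7 in ethanol and at 65.2 and 63.0 CPM (-0.18, -0.42 to 0.05), and MCM4 was at 275 and 294 in ethanol and at 273 and 277 CPM (-0.05, -0.28 to 0.19). RRM2 was at 603 and 730 in ethanol and at 523 and 736 CPM (-0.08, -0.44 to 0.28). UHRF1, with 57.9 and 57.3 in ethanol and 71.3 and 65.2 CPM with fluvastatin, was among the 5 higher genes (0.24, standard error 0.10, adjusted p = 0.19).

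The other 4 genes of unadjusted p under 0.05 in KMS11 were E2F1, MKI67, CDT1 and CDC25B. E2F1 was at 114 and 116 CPM in ethanol and at 179 and 141 with fluvastatin (0.48, standard error 0.12, adjusted p = 0.061). CDT1 was at 13.3 and 12.0 in ethanol and at 26 and 15.8 CPM (0.72, standard error 0.24, adjusted p = 0.14). CDC25B was at 62.2 and 66.1 in ethanol and at 98.1 and 71.4 CPM (0.40, standard error 0.14, adjusted p = 0.15), and MKI67 was at 432 and 442 in ethanol and at 623 and 511 CPM (0.38, standard error 0.10, adjusted p = 0.086). In all 4 genes replicate 1 was the higher of the fluvastatin libraries, and E2F1, CDT1 and CDC25B have the highest GC content of the 40 (61.6%, 64.3% and 59.1%). With each library's GC trend removed, an alternative added after seeing the data, the 2 genes past the threshold in KMS11 were MKI67 (0.45, adjusted p = 0.015) and CCNE2 (0.35, adjusted p = 0.041), where 10.9% of all tested genes passed. Without KMS11 fluvastatin replicate 2 there were 5 (CDT1, E2F1, MCM5, CDC25B, MKI67), where 16.03% of all tested genes passed, and without replicate 1 there were 0, where 2.12% passed. None of these counts was above the share of all genes.

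Of the mitosis genes in KMS11, AURKB was at 13.1 and 12.9 CPM in ethanol and at 17.0 and 14.2 with fluvastatin (0.26, 95% interval -0.05 to 0.57). CDC20 was at 92.0 and 98.6 in ethanol and at 115 and 86.7 CPM (0.08, -0.22 to 0.38), and BUB1B at 289 and 293 in ethanol and at 260 and 288 CPM (-0.09, -0.32 to 0.15). CDK1 was at 273 and 264 in ethanol and at 228 and 278 CPM (-0.08, -0.38 to 0.21), AURKA at 195 and 192 in ethanol and at 175 and 179 CPM (-0.13, -0.36 to 0.10). CCNB1 was at 296 and 310 in ethanol and at 271 and 296 CPM, and CDC25C at 11.8 and 12.3 in ethanol and at 12.5 and 11.3 CPM. For CDC20, CDK1 and CDC25C the fluvastatin libraries lay on both sides of the ethanol libraries.

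The difference between the responses was tested directly, as KMS11 minus H929. All 20 replication genes and 3 mitosis genes (AURKB, CDC20, BUB1B) differed, each with the more positive response in KMS11, where 23.2% of all tested genes differed (11.7% more positive and 11.5% more negative in KMS11). The median difference was 1.81 for the replication genes and 0.35 for the mitosis genes, beside 0.00 for all tested genes. The 5 largest differences were those of UHRF1 (2.54, standard error 0.14, adjusted p = 5.2e-05), MCM10 (2.30, 0.14, 5.2e-05), CDC45 (2.22, 0.15, 5.2e-05), CDC6 (2.04, 0.15, 9.5e-05) and E2F1 (1.97, 0.17, 0.00014). For E2F1, the rise in KMS11 that did not pass the threshold added to the fall in H929. For all 20 replication genes the lower bound of the KMS11 interval was above the upper bound of the H929 interval. The smallest difference of the list was that of MCM6 (0.68, standard error 0.13, adjusted p = 0.0059).

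The 20 mitosis genes were less separate between the lines, with 3 past the threshold (15%, beside the 11.7% of all tested genes more positive in KMS11). AURKB differed by 1.22 (standard error 0.19, adjusted p = 0.0024), CDC20 by 0.93 (0.19, 0.0079) and BUB1B by 0.58 (0.15, 0.022). With limma, BUB1B did not pass on log2(TPM + 1) (0.47, adjusted p = 0.097) or on log2(TPM + 0.1) (0.49, adjusted p = 0.094). Among replication genes, MCM6 and CCNE1 passed in neither of these fits, and CCNE2 did not pass on log2(TPM + 1). Of all tested genes 15.5% and 15% differed there. CDC25B differed by -0.55 (95% interval -1.0 to -0.11, adjusted p = 0.068), which did not pass the threshold as fitted but passed it under 8 alternatives. The value was -0.96 (adjusted p = 3.4e-05) with the GC trend removed, -0.78 (adjusted p = 0.004) without KMS11 fluvastatin replicate 1 and -0.60 (adjusted p = 0.015) with DESeq2. For CDK1 the difference was 0.49 (0.07 to 0.90, adjusted p = 0.086) and for PLK1 0.49 (0.06 to 0.93, adjusted p = 0.094). The number of mitosis genes that differed was 14 with the GC trend removed, where 32.9% of all tested genes differed, and it was 2 to 5 when single libraries were left out, where 9.78% to 31.85% differed, while 17 to 20 replication genes differed in those fits.

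**Figure D3:**
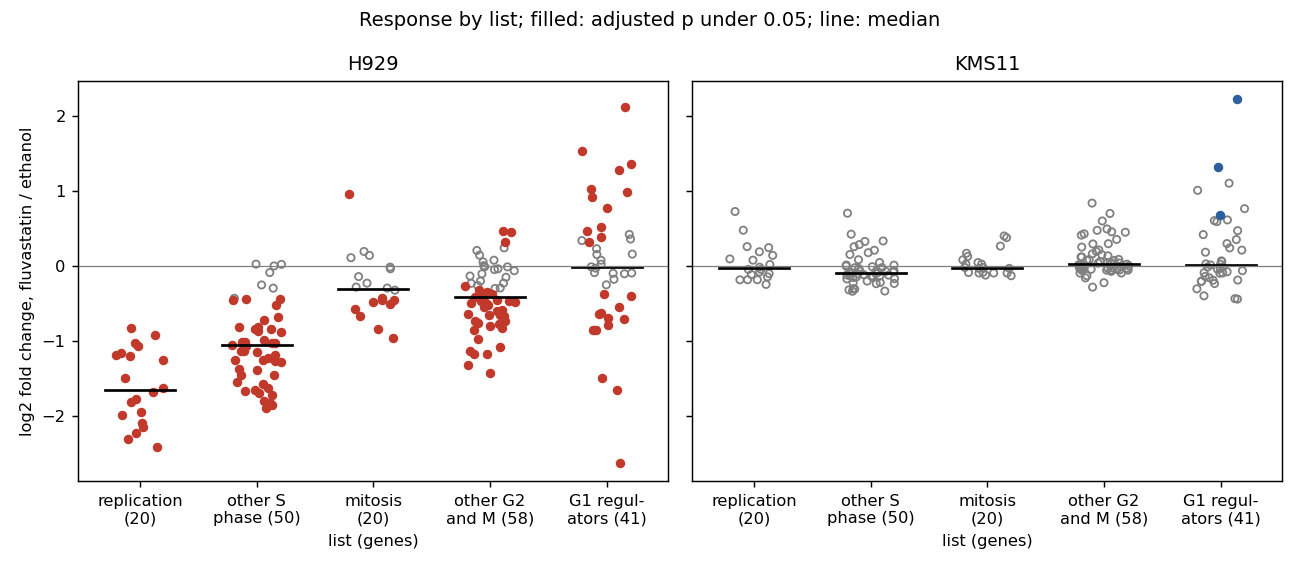
Log2 fold change, fluvastatin over ethanol, of each gene in 5 lists, in H929 (left) and KMS11 (right). Filled points have an adjusted p under 0.05, open points do not, and lines are list medians. In H929 the medians of the 2 S phase lists (-1.65 and -1.06) lie below those of the 2 G2 and M phase lists (-0.31 and -0.41), and in KMS11 filled points are seen only among 3 G1 regulators.

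The same order was seen in genes of the same pathways outside the 40. Of 50 other replication and S phase genes, 43 fell and 0 rose in H929 (median -1.06), and of 58 other G2 and M phase genes 35 fell and 3 rose (median -0.41). The shares that fell were 86% and 60.3%, beside the 19.3% of all tested genes. Those that rose were 0% and 5.17%, beside 22.7%. The largest falls among the first were those of FEN1, the flap endonuclease of Okazaki fragments (-1.89), EXO1, a DNA exonuclease (-1.85), and ORC1, the largest subunit of the origin recognition complex (-1.82). Among the second they were PKMYT1, an inhibitory kinase of CDK1 (-1.43), MAD2L1, a checkpoint protein (-1.32), and NCAPH, a condensin subunit (-1.17). CKAP2L (0.47), NEK2 (0.45) and CKAP2 (0.32), which act at the spindle and centrosome, were the 3 that rose. In KMS11, edgeR called 0 genes of either list, with 8 (16%) and 13 (22.4%) at an unadjusted p under 0.05, where 21.9% of all tested genes were. By the estimate, 37 of the 50 S phase genes (74%) were lower there and 13 higher, with a median of -0.09. Of all tested genes 48.06% were lower, and of the 58 G2 and M phase genes 39.66%. This lean was not tested. The difference between the responses was past the threshold for 38 of the 50 S phase genes (76%), all more positive in KMS11. Of the 58 G2 and M phase genes 31 were more positive in KMS11 (53.45%) and 1 more negative (1.72%). Their median difference was 0.49. Of all tested genes 11.7% were more positive and 11.5% more negative.

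The genes that govern entry into S phase moved in both directions in H929, with a median of -0.01. Of the 41, 12 were higher (29.3%) and 13 lower (31.7%), beside the 22.7% and 19.3% of all tested genes. CDC25A, the phosphatase that activates CDK2, fell the most of these, from 88.0 and 98.9 to 13.7 and 16.6 CPM (-2.63, standard error 0.12, adjusted p = 1.6e-06). E2F8, a repressor of the E2F family, had -1.65 and CDK2 had -1.50. CCNG2, a cyclin linked to cell cycle arrest (2.12), and the CDK inhibitor genes CDKN1C (1.53) and CDKN2B (1.36) rose the most. CDKN1C was at 0.12 to 0.61 CPM in the 4 H929 libraries, too low for a firm size.

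In KMS11, 3 of these 41 genes rose (7.32%) and 0 fell, beside the 2.58% and 0.533% of all tested genes. CDKN1A, which encodes the CDK inhibitor p21, went from 2.56 and 3.17 to 12.0 and 14.6 CPM (2.22, standard error 0.19, adjusted p = 0.00027). CDKN2B, which encodes p15, had 1.31 (adjusted p = 0.0042) and E2F2, an E2F activator, had 0.68 (adjusted p = 0.0075). In H929 CDKN1A was already at 257 and 209 CPM in ethanol and at 370 and 296 with fluvastatin (0.51, adjusted p = 0.018). The KMS11 level after fluvastatin remained far below the H929 level in ethanol. CDC25A in KMS11 had -0.31 (adjusted p = 0.15).

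Plasma cell markers moved in both directions in H929 alongside the replication genes, and of the 8 markers 3 fell and 2 rose (all tested genes, 19.3% and 22.7%). SDC1, the surface proteoglycan CD138, had -1.08 (adjusted p = 0.00086) and MZB1 had -1.02 (adjusted p = 0.0086), and XBP1 fell in both lines (-0.34 in H929, adjusted p = 0.0083, and -0.40 in KMS11, adjusted p = 0.035). PRDM1 (0.32, adjusted p = 0.015) and JCHAIN (0.36, adjusted p = 0.022) rose in H929. Of the 6 markers of other cells, CD14 and COL1A1 did not pass the filter on low counts, and 2 of the other 4 rose in H929. These were CD3E, at 4.08 and 4.4 CPM in ethanol and at 8.61 and 9.91 with fluvastatin (1.13, adjusted p = 0.0031), and PTPRC, at 0.31 and 0.52 and at 1.01 and 1.29 CPM (1.49, adjusted p = 0.036). EPCAM and PECAM1 did not pass the threshold. The part of these markers in the cell cycle result was not tested.

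Across both lines, with the line as a term, CDC25B was the 1 gene of the 40 that passed the threshold, 0.68 higher with fluvastatin (standard error 0.14, adjusted p = 0.027), where 10.4% of all tested genes changed (6.5% higher and 3.93% lower). This comparison uses the same libraries as those within the lines and is no separate evidence. The replication genes were lower by the estimate in 20 of 20 cases, with a median of -0.82 and a lowest value of -1.25 (MCM10, 95% interval -2.21 to -0.29, adjusted p = 0.086). The median of the mitosis genes was -0.16. The common dispersion was 0.0316 in this fit, against 0.0125 where each of the 4 groups had its own mean. CDC25B lost its call when any 1 of the H929 libraries was left out.

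**Figure D4:**
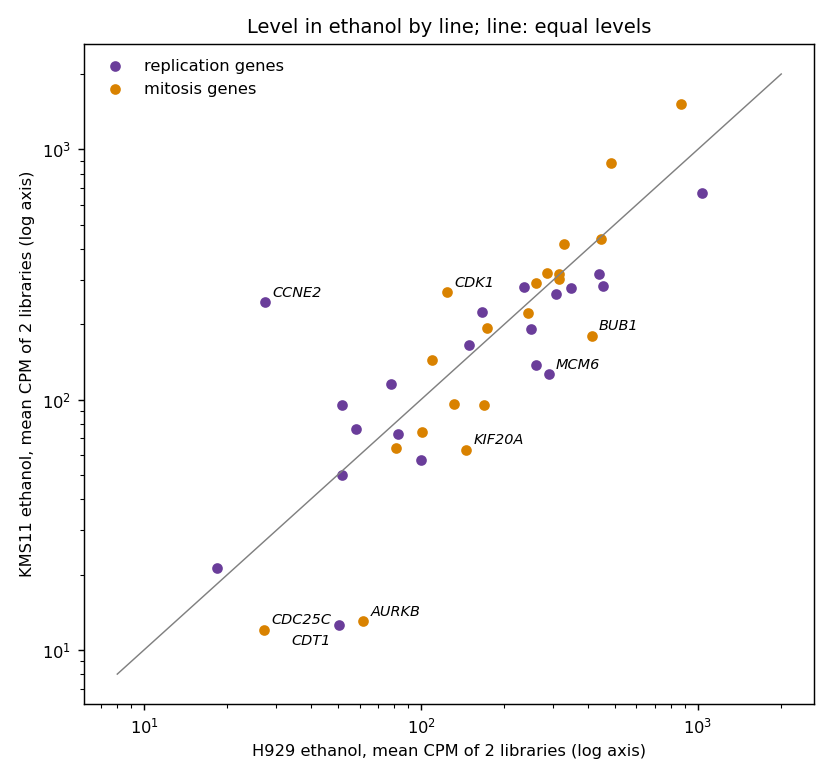
Mean CPM of each of the 40 genes in ethanol, H929 (horizontal) against KMS11 (vertical), both on log axes, with 2 libraries per point. The line marks equal levels, and genes that differ more than 2-fold are named. CCNE2 and CDK1 are above the line, and AURKB, CDT1, KIF20A, BUB1, MCM6 and CDC25C are below it.

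In ethanol the lines differed in these genes no more often than in all tested genes, and neither list stood to one side. Of the 40 genes, 27 differed, 11 higher (27.5%) and 16 lower (40%) in KMS11, where 72% of all tested genes differed (35.6% higher and 36.4% lower). The median log2 difference, KMS11 minus H929, was -0.20 for the replication genes and -0.04 for the mitosis genes. CCNE2 was at 231 and 259 CPM in KMS11 and at 23.4 and 31.3 in H929 (3.16, standard error 0.18, adjusted p = 2.3e-07), the largest difference of the 40. CCNE1 did not pass the threshold (0.21, adjusted p = 0.23). CDK1 was 1.11 higher in KMS11. AURKB was at 13.1 and 12.9 CPM in KMS11 and at 65.9 and 57.9 in H929 (-2.25, standard error 0.14, adjusted p = 4.1e-07), and AURKA had 0.17 (adjusted p = 0.17). CDT1 (-2.0), KIF20A (-1.20), BUB1 (-1.20), MCM6 (-1.20) and CDC25C (-1.17) were also lower in KMS11.

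The direction of smaller differences between the lines depended on the scale. On log2(TPM + 1) the difference moved toward KMS11 by a median of 0.48 per gene over all tested genes. There 21 of the 40 genes were higher and 8 lower, where 69.47% of all tested genes differed. With the GC trend removed 8 were higher and 21 lower, where 75.6% of all tested genes differed. All 6 of the MCM2-7 genes were lower in KMS11 on the CPM scale, by 0.32 to 1.20, but 3 of the 6 had a higher mean TPM there. The 8 genes with an absolute difference of at least 1 kept their direction and their call under every alternative run.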

How the data were processed

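RNA from H929 and KMS11 cells was sequenced by the authors as stranded total RNA after depletion of ribosomal RNA. Reads were aligned with STAR 2.5.2b to hg38 and quantified with RSEM 1.3.0 on GENCODE 26, per the labels and the study's methods. The deposited expected count is an estimated number of fragments per gene and is not normalized. The deposited TPM is scaled by effective length over all genes, so that a few abundant genes can shift all others. The effective length deposited by the authors was used for a length trend. Groups came from the sample titles. Names and coordinates of genes came from GENCODE 44, with 57392 of 58219 identifiers matched.

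Expected counts were rounded and tested in R 4.3.3 with edgeR 4.0.16 (quasi-likelihood F test, TMM, filterByExpr at min.count 10 and min.total.count 15, Benjamini-Hochberg over 13129 genes, threshold 0.05). The standard error is the log2 fold change divided by the square root of F. Alternatives used DESeq2 1.42.0, limma 3.58.1, other scalings, filters, thresholds and trends, and left out single libraries. Scripts were tested on simulated data. The 40 genes, the other lists and the motifs were chosen with earlier results of these data known. Levels in every library are given for the 6 largest changes past the threshold per list and line, the 5 largest differences between the lines and the highest and lowest mean TPM of each list, and MCM6, CCNE2, PCNA and MKI67 were added after their values were seen. From each other list up to 3 genes per direction and line are named. RSEM divides fragments that fit several genes, and pseudogenes named after the 40 genes held at most 165 expected counts (CDC20P1). Each group has 2 biological replicates, so p values rest on a spread shared across groups and genes.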

Additional observations from a re-analysis of the deposited data

Results flagged for a closer look

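H929 and KMS11 responded differently to fluvastatin in 23 of the 40 genes by edgeR's test of the difference itself, with Benjamini-Hochberg adjustment over all 13129 genes and adjusted p between 5.2e-05 and 0.022. That is 57.5% of the 40, where 23.2% of all tested genes differed (11.7% more positive and 11.5% more negative in KMS11). Among replication genes, the log2 response in KMS11 minus that in H929 was positive in 20 of 20, for UHRF1 (2.54), MCM10 (2.30), CDC45 (2.22), CDC6 (2.04), E2F1 (1.97), MCM4 (1.93), MCM2 (1.93), GINS2 (1.91), CDT1 (1.91), MCM7 (1.86), PCNA (1.76), MCM3 (1.65), MCM5 (1.51), GINS1 (1.49), CCNE2 (1.21), TYMS (1.20), RRM2 (1.12), CCNE1 (0.92), RRM1 (0.81) and MCM6 (0.68). Of the 20 mitosis genes 3 passed the threshold (15%, beside that 11.7% of all tested genes). These were AURKB (1.22), CDC20 (0.93) and BUB1B (0.58), all positive. In each of the 23, the H929 response was a fall past the threshold and the KMS11 response did not pass it.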

How the results depend on the processing

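Within H929, 25 to 34 of the 40 genes passed the threshold under all alternatives run, against 30 as reported, and the 20 replication genes fell in each. The difference between the lines was past the threshold for 19 to 34 genes, against 23. These ranges include fits that left out single libraries. The share of all tested genes past the threshold also moved in the refits at 0.05 on all 8 libraries. It ran from 31.99% to 53.32% within H929, against 42% as reported, and from 15% to 32.9% for the difference, against 23.2%. Within KMS11, against 0 as reported, 3 genes passed with DESeq2, 3 without a filter on low counts, 3 with a replicate block and 2 with the GC trend removed, where 8.35% (of genes with an adjusted p), 6.66%, 12.5% and 10.9% of all tested genes passed. Leaving out single libraries gave 0 to 5, with 5 without KMS11 fluvastatin replicate 2. Across both lines, against 1, the count was 0 at an adjusted p under 0.01. In what follows, the share of all tested genes past the threshold is in brackets, against 10.4% as reported. The count was 17 with DESeq2 (16 lower, 19.85% of genes with an adjusted p), 3 with median-of-ratios scaling (10.9%) and 6 without a filter (9.29%). It was 0 with a replicate block (1.2%) and 0 without the cell line term (0.03%). The count was 6 on log2(TPM + 1) (8.36%), 8 on log2(TPM + 0.1) (10.02%) and 4 with the GC trend removed (19.74%). Leaving out single libraries gave 0 to 9, with 9 without KMS11 fluvastatin replicate 2, 6 without KMS11 fluvastatin replicate 1, 3 without KMS11 ethanol replicate 1 and 0 without any 1 of the H929 libraries. In ethanol, against 27, 17 genes also had an absolute log2 difference of at least 0.5, and the share of all tested genes at that size was not counted. A stricter threshold can only lower a count. Leaving out a library moved counts in both directions, and the cause of the changes other than those of stricter thresholds was not tested. Among the comparisons of fluvastatin with ethanol and of the lines' responses, no value of a single gene turned its direction where it was past the threshold. In ethanol, single genes were followed only for the 8 with an absolute log2 difference of at least 1, which kept their direction, and some smaller differences between the lines changed direction with the scale.

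Same-numbered libraries deviated together in H929 (correlation 0.774 over 5561 genes) and not in KMS11 (-0.078). The main fit did not pair libraries by number in either line, so that the deviation shared in H929 stayed in the spread. A replicate block gave 33 genes in H929, with PLK1 (adjusted p = 0.041), TTK (0.021) and KIF11 (0.037) added, and 30 differences between the lines, 10 of them in mitosis genes against 3 without the block (all tested genes, 32.2% against 23.2%). The blocked fit could not be made for the lines in ethanol, where blocks lie within lines. The GC trend was chosen after seeing the data, and with it 14 mitosis genes differed between the lines. Each group had 2 replicates, and the KMS11 fluvastatin libraries had the widest spread of the 4 groups.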
